A study of Mus musculus with 8 samples.

Results

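Transcripts of 8 genes, 7 of them markers of fibroblast progenitors or members of mesenchymal surface panels and 1 a matrix gene listed with them (Sned1), were followed in C3H10T1/2 cells, an established multipotent mesenchymal line from mouse embryo, after sphingosine 1-phosphate (S1P, a signalling lipid) or vehicle. The genes are Pi16, Dpp4, Cd34, Ly6a, Ly6c1, Thy1, Eng and Sned1, and all 8 symbols were found among the 18306 rows of the deposited gene count table. All cells were held without serum for 24 h, and then received either the fatty acid-free albumin vehicle (4 libraries, numbered 1 to 4) or 5 µM S1P for 24 h (4 libraries, numbered 5 to 8). The labels name no other agent and no genetic change, and all libraries come from this line. The labels do not say whether each library is its own culture, and p-values therefore measure only the spread between libraries, which may be technical. The 8 genes were selected on no independent data, but with the S1P against vehicle log2 fold changes and counts of these same libraries known. Their differences between the groups are therefore given as a description, without p-values, and support nothing.

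In mouse connective tissue, Pi16 and Dpp4 mark fibroblasts of the outer vessel wall and of tissue septa that are regarded as progenitors of more specialised fibroblasts and of adipocytes. Ly6a (Sca-1), Cd34 and Ly6c1 are surface markers used to sort such cells, and Thy1 (CD90) and Eng (CD105, endoglin) belong to the standard surface panel of mesenchymal stromal cells. None of these markers is exclusive to fibroblasts, since Cd34, Eng, Ly6a and Ly6c1 are also used for endothelial or blood cells. Sned1 encodes a secreted matrix glycoprotein and is not a surface marker.

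The deposited counts summed to 13750303 to 13761544 per library. Of the genes, 11844 had enough counts to be tested, among them 7 of the 8 genes of the set, while Dpp4 did not pass. A pair of libraries stood apart from the rest in these markers. Vehicle replicate 1 and S1P replicate 5 held the lowest Cd34 and Thy1 and the highest Ly6a and Ly6c1 of their groups. Vehicle replicate 4 stood apart over all tested genes. Its score on the second principal component (28.5% of the variance) was -54.3, against -16.1 to 36.9 in the other libraries. Vehicle replicate 1 and S1P replicate 5 scored 20.7 and 33.9 on the third component, against -30.3 to 6.11 in the others. That component held 15.9% of the variance, so the pair was apart beyond these markers. Levels are given as CPM (counts scaled to library total and adjusted with composition factors), and differences as the log2 fold change of S1P over vehicle with its standard error (SE). A gene is called when its adjusted p in edgeR's quasi-likelihood test over all tested genes is under 0.05.

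Fibroblast progenitor and surface markers describe the set only in part, since Sned1 is a matrix gene. Of its progenitor markers, Dpp4, a membrane peptidase, was close to absent. It had a single count in each of vehicle replicates 2, 3 and 4, and a count of 0 in vehicle replicate 1 and in all 4 S1P libraries. A count of 0 among the 55041087 counts of the S1P libraries allows a level of up to 0.0545 CPM, for counting error only, so no fold is given. Wnt2, another marker of the Dpp4 population, did not pass the count filter and reached at most 1.26 CPM. Nt5e (CD73), the remaining member of the standard stromal panel besides Thy1 and Eng, reached at most 0.654 CPM. Neither was typical of its list, described further on. In the progenitor list 13 of 18 genes found passed the filter, and 24 of 27 among the other stromal surface markers. General fibroblast genes were abundant, with summed levels of 33148 to 41824 CPM over 22 genes in vehicle and 28765 to 34879 CPM after S1P.

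Defining markers of endothelial cells, leukocytes and adipocytes were near 0, while single genes of other lists were not. Among endothelial genes, Pecam1 reached at most 0.426 CPM, Cdh5 0.222 CPM and Kdr 0.0734 CPM. The summed endothelial list nevertheless came to 70.4 to 268 CPM in vehicle and 80.7 to 204 CPM after S1P, nearly all of it Flt1 and Tek. The leukocyte gene Ptprc (CD45) reached at most 0.144 CPM and the adipocyte gene Adipoq 0.284 CPM. The summed leukocyte list was 13.79 to 23.6 CPM in vehicle and 8.93 to 14.6 CPM after S1P. Most of it was the lipopolysaccharide co-receptor gene Cd14, at 10.5 to 20.2 CPM in vehicle and 7.77 to 10.3 CPM after S1P with the groups separate, and the lysozyme gene Lyz2, at 0.944 to 5.96 CPM and highest in vehicle replicate 1 and S1P replicate 5 of their groups. The mesothelial list summed to 1.11 to 5.15 CPM in vehicle and 1.03 to 3.49 CPM after S1P. In it Upk3b had 1.03 to 5.01 CPM in vehicle and 0.514 to 1.36 CPM after S1P, and Msln, which was not tested, 0 to 0.145 CPM and 0.433 to 2.69 CPM. The smooth muscle list moved with the groups, at 828 to 1003 CPM in vehicle and 1318 to 2604 CPM after S1P. In this list 3 of 4 tested members were called higher (Tagln, Acta2 and Actg2), against 5.6% of all tested genes. Its defining gene Myh11 stayed at or below 0.793 CPM. The part of these shifts in the results below was not tested. In RNA from a whole culture, fewer cells that express a gene and less RNA per cell cannot be told apart.

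Pi16 encodes a peptidase inhibitor-like protein of the CAP family (chromosome 17, 29455622 to 29466558 in mm9). Its counts were 125, 72, 55 and 99 in vehicle replicates 1 to 4, and 19, 4, 5 and 4 in S1P replicates 5 to 8. In CPM these were 8.87, 5.34, 4.07 and 7.18 in vehicle, against 1.37, 0.291, 0.367 and 0.287 after S1P. Every S1P library lay below every vehicle library, and S1P replicate 5 was the highest of its group. The mean went from 6.36 ± 2.10 to 0.579 ± 0.529 CPM (SD, n = 4 per group), which is 10.8-fold lower (log2 fold change -3.44, SE 0.52). The difference was larger without S1P replicate 5, at a log2 fold change of -4.30 (SE 0.41).

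Sned1, whose product carries a NIDO domain shared with the nidogens (chromosome 1, 95132218 to 95197842), followed almost the same course at a higher level. Its levels were 257, 90.5, 72.5 and 170.6 CPM in vehicle replicates 1 to 4 and 36.9, 6.39, 8.07 and 11.4 CPM in S1P replicates 5 to 8. The groups again did not overlap, and vehicle replicates ranked 1, 4, 2, 3 from high to low for both genes. The mean was 148 ± 84.6 CPM in vehicle and 15.7 ± 14.3 CPM after S1P (SD, n = 4 per group), 9.40-fold lower (log2 fold change -3.23, SE 0.63). Its call in edgeR was lost without S1P replicate 8, where the log2 fold change was -3.11 (SE 0.73). Its span shares 2255 bases with Mterfd2, which had 16.0 CPM in vehicle and 17.6 CPM after S1P, and the sources used here do not say how reads in the overlap were assigned.

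**Figure D1:**
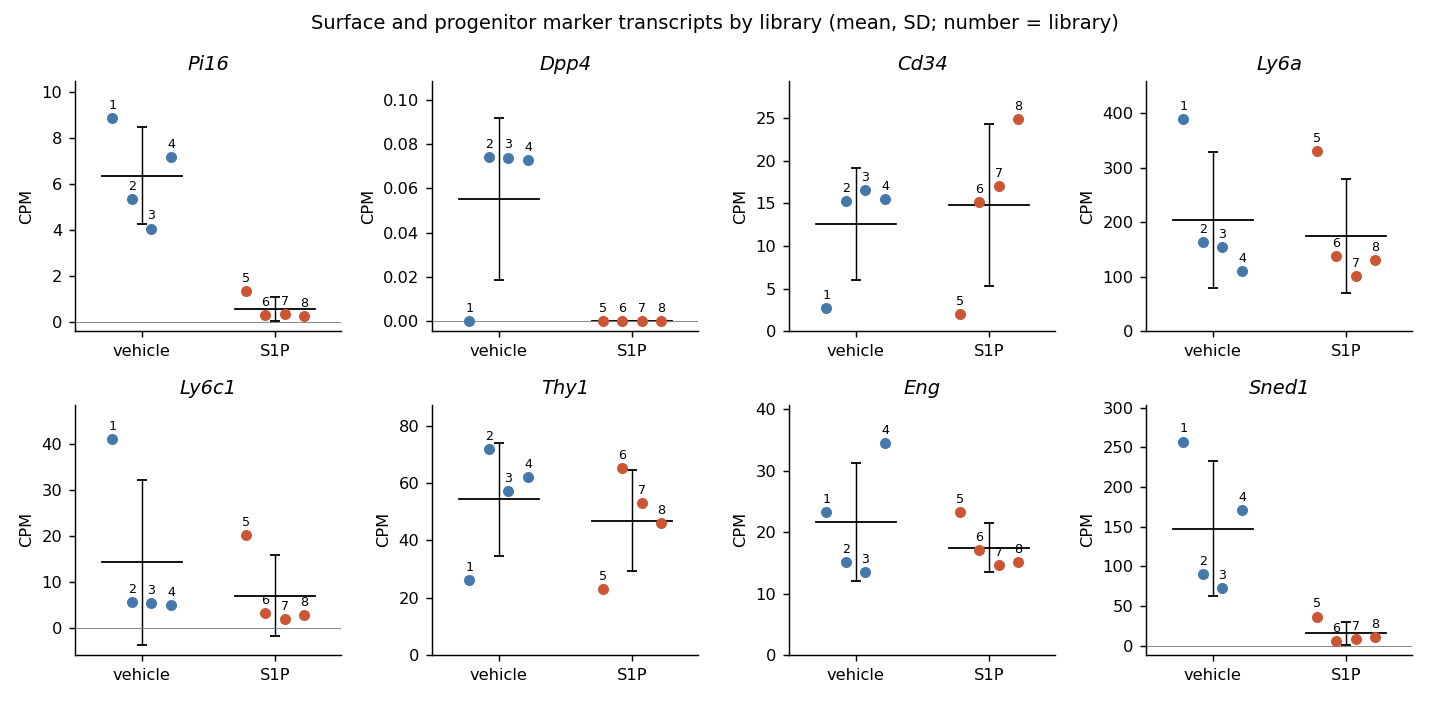
Level of each of the 8 transcripts in every library, in CPM on a linear axis, with vehicle in blue and S1P in red. Numbers name the libraries, horizontal bars are group means and error bars the SD (n = 4 per group). The groups are separate for Pi16 and Sned1 and overlap for the other genes, and libraries 1 and 5 lie apart from the rest for Cd34, Ly6a, Ly6c1 and Thy1.

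Of the 7 tested genes of the set, Pi16 and Sned1 were called lower, and the other 5 did not pass. Over all tested genes 8.5% were called in either direction, 5.6% higher and 2.9% lower, 24.9% had an unadjusted p under 0.05, the groups did not overlap in 19.2%, and in 7.21% every S1P library lay below every vehicle library, as in these 2 of the 7. These counts restate how the set was assembled. The log2 fold changes of all 7 and of the related progenitor genes described further on are drawn with their SE in the plot of log2 fold changes.

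Pi16 and Sned1 were each other's nearest gene among all those tested. Likeness was measured as the mean absolute difference in log2 CPM over the 8 libraries after each gene's own mean was subtracted, and it was 0.30 for this pair. The next nearest to Pi16 were Myo7a, an unconventional myosin, at 0.45 and the kinase gene Wnk4 at 0.59. The next nearest to Sned1 were Plekha6, a pleckstrin homology domain gene, and Wnk4, both at 0.52. Myo7a had 4.51 to 9.07 CPM in vehicle and 0.215 to 3.17 CPM after S1P, with S1P replicate 5 the highest of its group as for Pi16. These distances describe the same 8 libraries in which the group difference was seen, and they share the treatment as their main source of likeness.

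The regions upstream of these 2 genes are shown because the genes moved alike. They are the 250 bases before the annotated start in RefSeq (GRCm38.p6), at chr17:29318632-29318881 for Pi16 and chr1:93235647-93235896 for Sned1, both on the plus strand. Capitals mark the only matches, on either strand, to 7 short motifs.
Pi16: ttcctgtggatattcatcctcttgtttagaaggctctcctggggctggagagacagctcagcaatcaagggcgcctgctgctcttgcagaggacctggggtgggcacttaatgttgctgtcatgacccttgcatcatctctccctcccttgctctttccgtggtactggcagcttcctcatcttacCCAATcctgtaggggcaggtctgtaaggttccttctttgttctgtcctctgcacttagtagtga
Sned1: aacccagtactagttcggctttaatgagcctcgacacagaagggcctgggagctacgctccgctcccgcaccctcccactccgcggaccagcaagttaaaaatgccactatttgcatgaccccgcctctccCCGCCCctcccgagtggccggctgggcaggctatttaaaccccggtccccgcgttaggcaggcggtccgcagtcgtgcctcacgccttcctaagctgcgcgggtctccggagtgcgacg
The Pi16 window held a CCAAT box (CCAAT), found in 33.8% of all 32851 such windows, and the Sned1 window a GC box (GGGCGG, here on the minus strand), found in 32.7%. Neither held the TEAD motif GGAATG (12.6% of windows), the AP-1 motif TGANTCA (6.75%), the SMAD motif CAGACA (17.1%), the E-box CACGTG (6.02%) or TATAAA (12.4%). The windows differed in base composition, with 52.4% G and C in Pi16 and 64.0% in Sned1 against a median of 52.4% over all windows. No motif of the 7 was shared by the pair in these windows. A match or its absence describes these letters alone.

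Cd34, Thy1, Ly6a and Ly6c1 varied mostly between libraries of the same treatment. Cd34, a sialomucin of progenitor and endothelial surfaces (chromosome 1, 196764815 to 196787686), stood at 2.77, 15.3, 16.6 and 15.5 CPM in vehicle replicates 1 to 4. After S1P it stood at 2.02, 15.2, 17.0 and 24.8 CPM in replicates 5 to 8. Vehicle replicate 1 and S1P replicate 5 were low and the other 6 libraries lay at 15.2 CPM or more, so the groups overlapped. The means were 12.5 ± 6.53 and 14.8 ± 9.47 CPM (SD, n = 4 per group), with a log2 fold change of 0.24 (SE 0.68). This difference took the other sign without vehicle replicate 1 (-0.12) or without S1P replicate 8 (-0.13). With both low libraries left out it was 0.28 (SE 0.22).

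Thy1, a GPI-anchored glycoprotein of the immunoglobulin family (chromosome 9, 43851267 to 43856862), was low in the same libraries. Its levels were 26.1, 71.8, 57.1 and 62.1 CPM in vehicle replicates 1 to 4 and 23.1, 65.3, 53.2 and 46.2 CPM in S1P replicates 5 to 8. The groups overlapped, with means of 54.3 ± 19.8 and 46.9 ± 17.8 CPM (SD, n = 4 per group) and a log2 fold change of -0.21 (SE 0.35). Without both low libraries it was -0.21 (SE 0.17).

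Ly6a, which encodes the GPI-anchored Sca-1 antigen (chromosome 15, 74825108 to 74828264), was high in the libraries where Cd34 and Thy1 were low. It reached 389 CPM in vehicle replicate 1, against 164, 155 and 110.0 CPM in vehicle replicates 2 to 4. After S1P it reached 331 CPM in replicate 5, against 139, 100.5 and 130.5 CPM in replicates 6 to 8. The group means were 205 ± 125 and 175 ± 105 CPM (SD, n = 4 per group), with a log2 fold change of -0.22 (SE 0.46) that became 0.27 without vehicle replicate 1 and -0.20 (SE 0.19) without both high libraries.

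Ly6c1, a GPI-anchored relative of Ly6a (chromosome 15, 74875247 to 74879460), had the widest range of the 7 tested genes among vehicle libraries, 8.11-fold. It stood at 41.2 CPM in vehicle replicate 1 and at 5.71, 5.47 and 5.08 CPM in vehicle replicates 2 to 4. After S1P it stood at 20.3 CPM in replicate 5 and at 3.27, 2.05 and 2.87 CPM in replicates 6 to 8. The groups overlapped only through the high S1P library. The log2 fold change was -1.01 (SE 0.92), with means of 14.4 ± 17.9 and 7.12 ± 8.78 CPM (SD, n = 4 per group). It ranged from -2.39 without S1P replicate 5 to 0.37 without vehicle replicate 1. With both left out it was -0.97 (SE 0.26), on vehicle libraries of 5.08 to 5.71 CPM and S1P libraries of 2.05 to 3.27 CPM, and Ly6c1 was not called in that fit either.

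**Figure D2:**
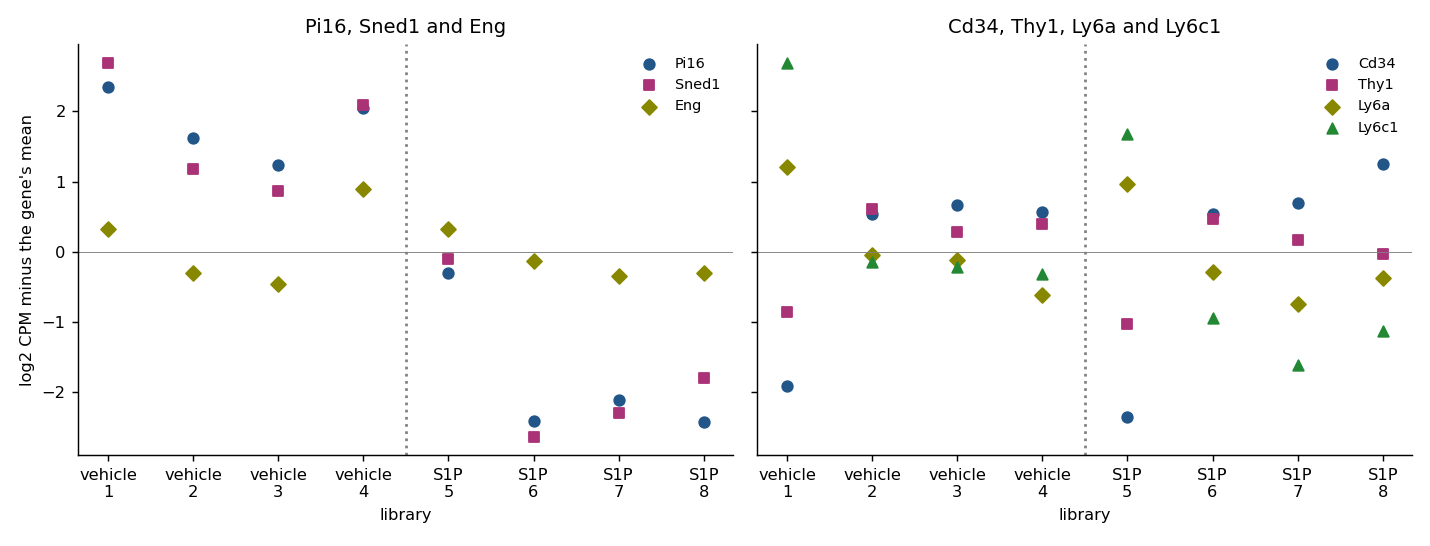
Log2 CPM of each tested marker minus its own mean over the 8 libraries, with vehicle libraries left and S1P libraries right of the dotted line. Pi16 and Sned1 lie high in vehicle and low after S1P, Eng lies within 1 log2 unit of its mean, and in the right panel libraries 1 and 5 carry low Cd34 and Thy1 with high Ly6a and Ly6c1.

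The genes nearest to these 4 markers had the same 2 libraries as their lowest or highest. This follows from how they were picked, since nearness was measured on the profiles over the same 8 libraries, and it is no separate support. For Cd34 the nearest was the zinc finger gene Zfp422, at a mean absolute difference of 0.16, with 1.06 CPM in vehicle replicate 1, 0.721 CPM in S1P replicate 5 and 5.26 to 9.19 CPM in the other 6 libraries. The annexin Anxa8, also among the 3 nearest, had 14.8 and 10.5 CPM in these 2 libraries and 47.5 to 80.3 CPM elsewhere. For Ly6a the nearest were Ugt1a6a, a glucuronosyltransferase, Akr1c13, an aldo-keto reductase, and the matrix gene Matn2, at 0.12, 0.13 and 0.14. Matn2 had 318 CPM in vehicle replicate 1, 232 CPM in S1P replicate 5 and 107 to 159 CPM in the rest. For Ly6c1 the nearest was Aox1, an aldehyde oxidase, at 0.16, with 63.1 CPM in vehicle replicate 1 and 25.4 CPM in S1P replicate 5 against 2.57 to 7.04 CPM in the rest. The nearest to Thy1 was Dock8, a guanine nucleotide exchange factor, at 0.18. For Afap1l2, also near Thy1, the gap was small, with 2.27 CPM in vehicle replicate 1 and 2.51 CPM in S1P replicate 8. The labels give no batch, day or culture for any library, so what libraries 1 and 5 share cannot be named from them.

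Ly6a and Ly6c1 belong to a cluster of related genes on chromosome 15, and its other members were compared with them. Ly6c2, the copy nearest to Ly6c1, had 45 counts in vehicle replicate 1 and 27 in S1P replicate 5, against 2 to 6 in the other 6 libraries, and did not pass the count filter. Its count was 0.05 to 0.107 of the Ly6c1 count in every library. Ly6e, which lies on the other side of Ly6a, did not have that pattern. It had 3.97 CPM in vehicle replicate 1 and 6.82 to 15.5 CPM in the other vehicle libraries, and 4.02 to 5.28 CPM after S1P. Ly6i and Ly6f stayed at or below 2 and 14 counts. The ratio of Ly6a to Ly6c1 in CPM was 9.44 and 16.3 in libraries 1 and 5 and 21.7 to 48.9 in the others.

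The first 120 coding bases of the 3 related genes are shown (GENCODE M21, chromosome 15, 5′ to 3′). This window was chosen as the 120-base stretch in which Ly6c1 and Ly6c2 differ most. It holds 6 of their 9 coding differences, so the rest of the coding sequence separates these 2 genes less. In the Ly6c1 and Ly6c2 lines, capitals mark the 6 bases that differ between these 2 genes, and in the Ly6a line the 8 bases that differ from Ly6c1.
Ly6c1: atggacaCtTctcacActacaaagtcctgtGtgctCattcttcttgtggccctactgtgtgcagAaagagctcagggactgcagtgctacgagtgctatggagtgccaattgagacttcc
Ly6c2: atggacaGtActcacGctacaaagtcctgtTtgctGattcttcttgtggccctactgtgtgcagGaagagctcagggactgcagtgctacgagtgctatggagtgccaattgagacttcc
Ly6a: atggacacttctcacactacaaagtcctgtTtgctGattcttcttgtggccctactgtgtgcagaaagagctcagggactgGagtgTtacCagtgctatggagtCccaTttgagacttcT
Over their whole coding sequences of 393 bases, Ly6c1 and Ly6c2 differed at 9 positions (97.7% identical), with a longest identical run of 188 bases. Ly6a and Ly6c1 were 81.8% identical, with a longest identical run of 48 bases, and Ly6a and Ly6e 53.5% identical. The values of Ly6c1 and Ly6c2 are uncertain to the extent that the counting could split reads between them, and the sources used here give neither read length nor counting rule.

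**Figure D3:**
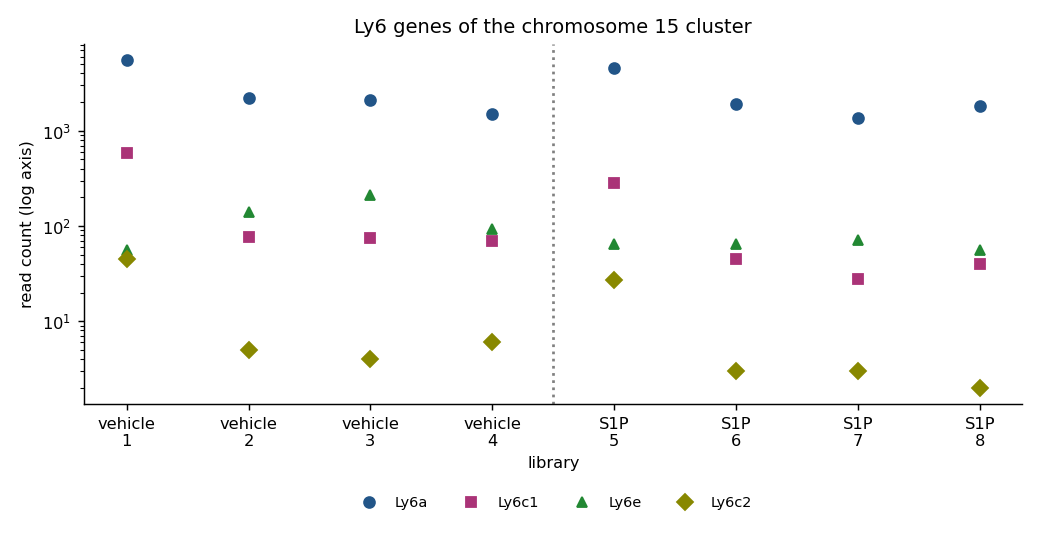
Read counts of 4 genes of the Ly6 cluster by library on a log axis, with vehicle libraries left and S1P libraries right of the dotted line. Ly6a, Ly6c1 and Ly6c2 are high together in libraries 1 and 5, and Ly6e, at 56 to 210 counts, is not.

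Eng, the endoglin co-receptor for BMP and TGF-beta ligands (chromosome 2, 32501915 to 32538389), was high in vehicle replicates 1 and 4 and in S1P replicate 5. It stood at 23.3, 15.1, 13.5 and 34.5 CPM in vehicle replicates 1 to 4 and at 23.2, 17.1, 14.6 and 15.1 CPM in S1P replicates 5 to 8. Vehicle replicate 4 was the highest library, vehicle replicate 1 and S1P replicate 5 came next, the other 5 lay at 13.5 to 17.1 CPM, and the groups overlapped. The means were 21.6 ± 9.62 and 17.5 ± 3.97 CPM (SD, n = 4 per group), with a log2 fold change of -0.31 (SE 0.30), and 0.015 (SE 0.23) without vehicle replicate 4. Its nearest genes Homer3, Bcat2 and Spen, at 0.057 to 0.083, were also highest in that library, which follows from their choice by likeness of profile. Spen had 60.4 CPM there, 38.5 CPM in vehicle replicate 1 and 41.8 CPM in S1P replicate 5, against 26.6 to 29.5 CPM in the rest. The span of Eng overlaps Ak1 by 611 bases and Fpgs by 461 bases, and Ak1 was more abundant, at 80.4 CPM in vehicle and 71.7 CPM after S1P.

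Per kilobase of exon (GENCODE M21), levels in vehicle followed the order Ly6a (170 ± 104 CPM per kb), Thy1 (18.1 ± 6.60), Sned1 (15.6 ± 8.91), Ly6c1 (8.57 ± 10.7), Eng (5.34 ± 2.38), Cd34 (1.72 ± 0.896), Pi16 (1.00 ± 0.331) and Dpp4 (0.00873 ± 0.00582; SD, n = 4 each). Ly6a lay above all others in every library of its group. The ranges of Thy1, Sned1, Ly6c1 and Eng overlapped from neighbour to neighbour, as did those of Cd34 and Pi16, while Eng lay above Cd34. After S1P, Sned1 was at 1.65 ± 1.51 CPM per kb, with a mean below those of Ly6c1, Eng and Cd34 (2.03 ± 1.30) and a range overlapping all of theirs, and Pi16 was at 0.0909 ± 0.0831.

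Within a treatment the 7 tested genes varied more than most genes. The SD of log2 CPM among vehicle libraries was 0.49 for Pi16, 1.25 for Cd34 and 1.46 for Ly6c1, against a median of 0.32 over all tested genes. Among S1P libraries it was 1.02 for Pi16, 1.62 for Cd34, 1.48 for Ly6c1 and 1.12 for Sned1, against a median of 0.16. Eng had the smallest SD of the 7 after S1P, 0.30, and 79.7% of tested genes had a smaller one. At the low counts of Pi16 after S1P, counting error adds to this spread.

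Genes that other studies place with Pi16 and Dpp4 in mouse fibroblast progenitors were examined as a list that leaves out the set itself. This list and those below were also chosen with earlier results of these data known. Their counts and adjusted p-values describe these libraries and are no independent support. Of 21 listed genes 13 were tested, 4 fell, 2 rose and 7 did not pass, with a median log2 fold change of -0.31 against -0.036 over all tested genes, of which 2.9% were called lower and 5.6% higher. Cd55, a GPI-anchored complement decay factor, fell 4.86-fold, from 29.5 ± 9.77 CPM in vehicle to 6.05 ± 1.39 CPM with S1P (SD over 4 libraries each; log2 fold change -2.28, SE 0.28, adjusted p = 0.00305 in edgeR). Every S1P library, at 4.91 to 7.75 CPM, lay below the vehicle libraries at 18.7 to 39.3 CPM. Efhd1, a mitochondrial calcium-binding protein, fell from 27.2 ± 8.15 to 6.49 ± 2.81 CPM (log2 fold change -2.06, SE 0.32, edgeR adjusted p = 0.00592).

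Clec3b, which encodes tetranectin, fell from 83.6 ± 45.6 to 16.3 ± 10.1 CPM (log2 fold change -2.35, SE 0.47, edgeR adjusted p = 0.016). As for Pi16 and Sned1, S1P replicate 5 was the highest of its group, at 31.2 CPM against 8.93 to 13.5 CPM. In vehicle, however, Clec3b was highest in replicate 4 (146 CPM, against 88.3 CPM in replicate 1), and Pi16 and Sned1 in replicate 1. Clec3b missed the threshold when S1P replicate 6, 7 or 8 was dropped (edgeR adjusted p of up to 0.0608). The guidance cue Sema3c fell from 166 ± 54.7 to 73.6 ± 14.9 CPM (log2 fold change -1.18, SE 0.23, edgeR adjusted p = 0.0147), and missed the threshold once S1P replicate 8 was dropped (edgeR adjusted p = 0.0562).

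The 2 risers of this list were Anxa3, an annexin, and Limch1, an activator of non-muscle myosin. Anxa3 went from 114 ± 25.6 to 263 ± 44.2 CPM (log2 fold change 1.21, SE 0.18, edgeR adjusted p = 0.00514) and Limch1 from 15.9 ± 2.57 to 44.0 ± 6.73 CPM (log2 fold change 1.47, SE 0.16, edgeR adjusted p = 0.00248). Both were separate between the groups. Fn1, the fibronectin gene and the most abundant of the list, had 9176 ± 949.6 and 10794 ± 1255 CPM (edgeR adjusted p = 0.344). Pcolce2, which did not pass, was high in libraries 1 and 5, at 28.9 and 13.85 CPM against 3.45 to 7.86 CPM elsewhere. The count of genes that fell was 2 without S1P replicate 8 and 2 to 5 over all such omissions.

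**Figure D4:**
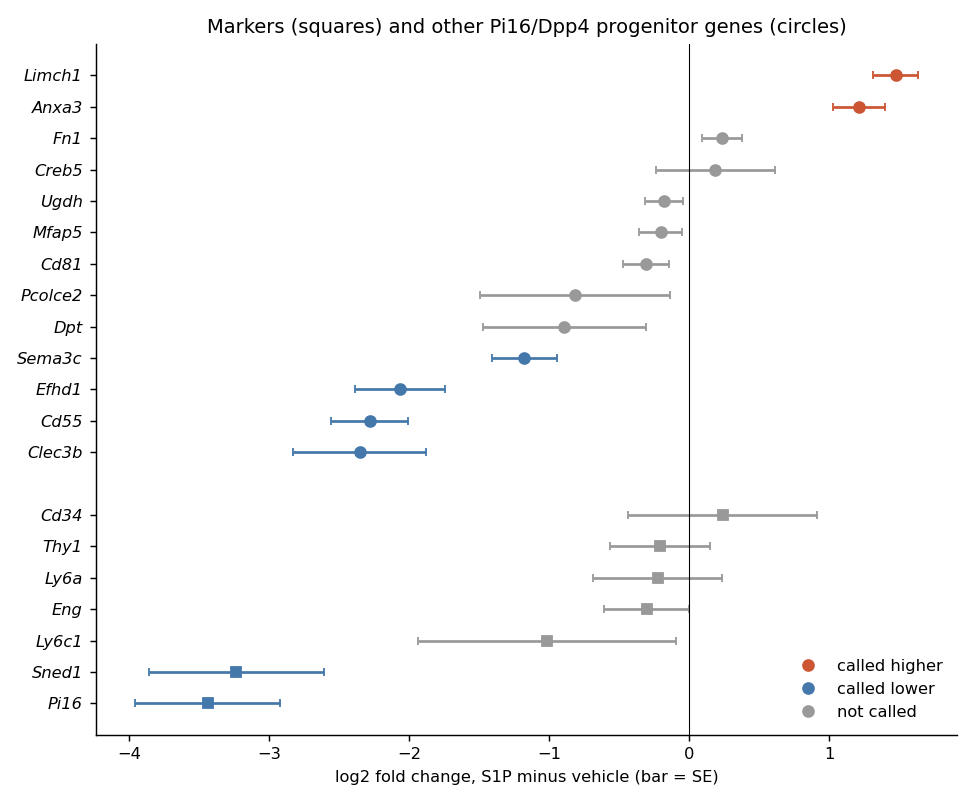
Log2 fold change of S1P over vehicle with its SE for the 7 tested genes of the set (squares, below) and the 13 tested genes of the Pi16/Dpp4 progenitor list (circles, above). Blue is called lower, red called higher and grey not called. Pi16 and Sned1 lie beyond -3, and the list runs from -2.35 for Clec3b to 1.47 for Limch1.

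Genes of the more committed preadipocyte and Col15a1 fibroblast states were set beside the progenitor list. Of 13 tested genes 1 fell and 12 did not pass, where 2.9% of all tested genes were called lower. Their median log2 fold change was -0.73, against -0.036 over all tested genes, and 11 of the 13 were negative, against 53.9%. The adhesion molecule Icam1 fell from 65.0 ± 32.2 to 23.9 ± 3.75 CPM (log2 fold change -1.44, SE 0.36, edgeR adjusted p = 0.0404), but the groups overlapped, and the call was lost on dropping any library but vehicle replicate 1 (edgeR adjusted p of up to 0.117). The list had 3 genes lower without S1P replicate 5 and 0 when vehicle replicates 2 or 3, or any of S1P replicates 6 to 8, were dropped singly. Col4a1, the most abundant member, had a log2 fold change of -0.27 (edgeR adjusted p = 0.506).

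Other surface markers of mesenchymal stromal cells went both ways. Of 24 tested genes 3 rose, 1 fell and 20 did not pass, where 5.6% of all tested genes were called higher and 2.9% lower. Mcam (CD146), an adhesion molecule of pericytes, rose 5.87-fold from 1.02 ± 0.309 to 6.04 ± 1.63 CPM (log2 fold change 2.55, SE 0.31, edgeR adjusted p = 0.00305). Ncam1 rose by 0.88 (SE 0.17, edgeR adjusted p = 0.0135) on the log2 scale, though it missed the threshold once S1P replicate 6 was dropped (edgeR adjusted p = 0.0563). The integrin Itga1, named because it is the third riser although picked with its value in view, had a log2 fold change of 0.45 (SE 0.11, edgeR adjusted p = 0.0319). Itga1 kept that call only without vehicle replicate 4 and lost it in the 7 other single omissions (edgeR adjusted p of up to 0.109). Anpep (CD13), an aminopeptidase, fell from 46.8 ± 14.2 to 17.5 ± 2.94 CPM (log2 fold change -1.42, SE 0.23, edgeR adjusted p = 0.00699). Itgb1, the most abundant, had a log2 fold change of 0.38 and did not pass (edgeR adjusted p = 0.133). Without S1P replicate 6 the count of risers was 1, and without vehicle replicate 4 there were 4 that fell.

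Of 22 tested general fibroblast genes 3 fell and 19 did not pass, where 2.9% of all tested genes were called lower. Their median log2 fold change was -0.18, against -0.036 over all tested genes. The small proteoglycans Dcn and Lum fell, with log2 fold changes of -2.13 (SE 0.40, edgeR adjusted p = 0.0125) and -2.23 (SE 0.47, edgeR adjusted p = 0.0197), and so did the collagen VI chain Col6a1 (log2 fold change -1.003, SE 0.18, edgeR adjusted p = 0.0104). Lum missed the threshold when S1P replicate 6, 7 or 8 was dropped (edgeR adjusted p of up to 0.0716) and Dcn when S1P replicate 6 was (edgeR adjusted p = 0.0525). Without S1P replicate 6, 1 gene of the list fell, and without vehicle replicate 4, 5 did. Fstl1, the most abundant, did not pass (log2 fold change -0.47, edgeR adjusted p = 0.127).

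GPI-anchored surface proteins other than the markers were listed because Thy1, Ly6a and Ly6c1 are held in the membrane by this lipid anchor. Of 20 tested genes 3 fell, 1 rose and 16 did not pass, where 2.9% of all tested genes were called lower and 5.6% higher. Their median log2 fold change was -0.38, against -0.036 over all tested genes. Besides Cd55, which the progenitor list also holds, the GDNF co-receptor Gfra1 fell from 102 ± 62.5 to 21.6 ± 10.4 CPM (log2 fold change -2.23, SE 0.46, edgeR adjusted p = 0.0176), and the protease inhibitor Reck had a log2 fold change of -0.56 (SE 0.13, edgeR adjusted p = 0.0291). Gfra1 missed the threshold when S1P replicate 6 or 8 was dropped and Reck without vehicle replicate 2 or S1P replicate 5, 6 or 7 (edgeR adjusted p of up to 0.0621 and 0.11). The riser was the glypican Gpc6, picked with its value in view, at a log2 difference of 0.52 (SE 0.13, edgeR adjusted p = 0.0423). Gpc6 lost that call in 6 of 8 single omissions (edgeR adjusted p of up to 0.133). The count of risers in this list was 0 without vehicle replicate 1 or any one S1P library, and 3 without vehicle replicate 4. The count that fell was 1 without S1P replicate 6 and 5 without vehicle replicate 4.

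Among close relatives of the markers (51 symbols of the Ly6, CAP, prolyl peptidase, sialomucin and NIDO families), 18 were tested. Where 2.9% of all tested genes were called lower, 1 of these relatives fell and 17 did not pass. That gene was Susd2, a NIDO-domain relative of Sned1, which fell from 3.29 ± 0.762 to 0.653 ± 0.253 CPM (log2 fold change -2.32, SE 0.36, edgeR adjusted p = 0.00561). A count of 2 was reached without vehicle replicate 1, 3 or 4. The nidogens Nid1 and Nid2 had log2 fold changes of -0.11 and -0.31 and did not pass (edgeR adjusted p = 0.683 and 0.387). Glipr2, the most abundant CAP relative of Pi16, had a log2 fold change of -0.058 and Dpp8, the most abundant relative of Dpp4, one of 0.17 (edgeR adjusted p = 0.832 and 0.497). Podxl2, a sialomucin relative of Cd34, had 4.95 to 16.4 CPM in vehicle and 2.42 to 4.24 CPM after S1P and did not pass (edgeR adjusted p = 0.0857). Cd59a, the most abundant other Ly6-type gene, had a log2 fold change of -0.37 (edgeR adjusted p = 0.318).

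Of 19 tested receptors, ligands and Smad outputs linked to endoglin, 1 rose, 2 fell and 16 did not pass, where 5.6% of all tested genes were called higher and 2.9% lower. Their median log2 fold change was 0.026. The type II receptor Tgfbr2 fell from 490.3 ± 42.5 to 299 ± 11.3 CPM (log2 fold change -0.72, SE 0.10, edgeR adjusted p = 0.00428), and kept its call when any library was dropped. The co-receptor Tgfbr3 (log2 fold change -0.84, edgeR adjusted p = 0.0269) and the ligand Tgfb3 (log2 fold change 1.04, edgeR adjusted p = 0.0272) each lost theirs in 6 of 8 such fits, keeping it only without vehicle replicate 4 or S1P replicate 5 (edgeR adjusted p of up to 0.0958 and 0.0878). Acvrl1, the endothelial type I receptor that works with endoglin, reached at most 0.961 CPM and was not tested.

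Ly6a and Ly6c1 are interferon-inducible in mouse cells, and interferon-stimulated genes were therefore set beside them. Of 24 tested genes 3 fell (Psmb8, Ifitm3 and Tap1) and 21 did not pass, where 2.9% of all tested genes were called lower. A negative log2 fold change was found in 23 of the 24, against 53.9% of all tested genes. Their median was -1.08, against -0.036. In 8 of the 24 every S1P library lay below every vehicle library, against 7.21% of all tested genes. The summed level was 1525 to 3111 CPM in vehicle and 1025 to 1691 CPM after S1P. Ifit1 had 200 CPM in vehicle replicate 1, below the 477 CPM of vehicle replicate 3, and 143 CPM in S1P replicate 5, above the 34.8 to 125 CPM of the other S1P libraries. The part of interferon-type transcripts in the values of Ly6a and Ly6c1 was not tested. With a library dropped in turn, the number that fell ran from 1, without S1P replicate 6 or 8, to 10, without vehicle replicate 4.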

How the data were processed

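The authors deposited read counts in whole numbers, with a row per Ensembl gene, from 8 libraries of C3H10T1/2 cells, with symbols and mm9 coordinates. STAR 2.5.3a and build mm9 are named per the submitters' processing notes. The table holds sense counts per the labels, and no counting tool or annotation is named in the sources used here. The totals were nearly equal, and whether the counts had been brought to a common depth before deposit is not stated there. At this depth the limit for a count of 0 is 0.213 to 0.222 CPM per library (3 counts, counting error only).

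Columns were matched to samples by title. Genes were kept by filterByExpr (minimum count 10) and fitted in edgeR 4.0.16 (R 4.3.3) with TMM factors and the robust quasi-likelihood test over all 8 libraries, treatment as the only term, Benjamini-Hochberg adjusted over 11844 genes. The SE is the log2 fold change divided by the root of the F statistic. The fit was tested on counts simulated for 11754 genes in the same design. It called 61.6% of 86 genes changed by 1 on the log2 scale and 88.4% of 112 changed by 2. Of its calls, 3.8% were unchanged genes. Each simulated gene was drawn independently from a negative binomial with the fitted spread, without effects shared by the genes of a library. These rates therefore need not hold for the deposited counts. Nearest genes used log2 CPM with a prior count of 0.5. The markers, lists and named genes were chosen with earlier results of these data known. The text names all markers, up to 3 called genes with the largest change and the most abundant gene of most lists, the 3 genes nearest to a marker, and neighbouring Ly6 genes. Sema3c, Anxa3, Limch1, Pcolce2, Itga1, Gpc6, Nid2 and Ifit1 and the genes of the cell type checks fall outside this rule and were picked with their values seen. Exon lengths and coding sequences came from GENCODE M21 (GRCm38) by Ensembl identifier, and for coding sequences the principal transcript was used. Upstream sequences came from RefSeq (GRCm38.p6), where 6 of the 8 markers were found by symbol. Alternatives used RLE or no composition factors, no filter, a filter of 1 CPM in 4 libraries, DESeq2 1.42.0, limma-voom (limma 3.58.1), 1 surrogate variable (sva 3.50.0) and libraries left out.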

Additional observations from a re-analysis of the deposited data

Results flagged for a closer look

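In groups of 4, a library was singled out when its gap to the nearest other, as a share of the group's range, exceeded the 95% critical value of Dixon's test, which chance gives in about 1 of 20 groups. Of 90 groups examined, over 45 genes (the 7 tested genes of the set, the tested progenitor list, and the genes with the largest called change or highest mean in the other lists), 13 met this. S1P replicate 5 was the highest of its group for Pi16 at 1.37 CPM (others 0.287 to 0.367), Ly6a at 331 CPM (100.5 to 139), Ly6c1 at 20.3 CPM (2.05 to 3.27), Sned1 at 36.9 CPM (6.39 to 11.4), Cd59a at 35.9 CPM (26.8 to 27.9) and Pcolce2 at 13.85 CPM (3.45 to 4.74). Vehicle replicate 1 was the lowest for Cd34 at 2.77 CPM (others 15.3 to 16.6) and the highest for Ly6c1 at 41.2 CPM (5.08 to 5.71), Pcolce2 at 28.9 CPM (3.70 to 7.86) and Creb5 at 4.12 CPM (1.26 to 1.56). Vehicle replicate 4 was the highest for Reck at 130.3 CPM (96.7 to 99.8) and the lowest for Mfap5 at 68.4 CPM (99.8 to 103). S1P replicate 7 was the highest for Dpp8 at 244 CPM (230.4 to 232). For Ly6c1 and Pcolce2 both treatments held such a library.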

How the results depend on the processing

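Pi16 and Sned1 were called lower in each alternative run except the fit without S1P replicate 8, in which Sned1 was not called. The genes of the set called lower thus numbered 1 to 2. Both genes were chosen with their differences in these libraries known, so the repeated calls support nothing. No paired analysis was possible because the groups share no replicate numbers in the labels (1 to 4 against 5 to 8). Leaving out 1 library at a time gave 333 to 1133 genes higher and 101 to 723 lower over all genes, against 663 and 344 with all libraries. For the lists, the same fits gave 2 to 5 progenitor genes lower, 0 to 3 committed genes lower, 1 to 3 stromal surface genes higher and 1 to 4 lower, and 0 to 1 fibroblast genes higher and 1 to 5 lower. They gave 0 to 3 GPI-anchored genes higher and 1 to 5 lower, 0 to 2 close relatives higher and 1 to 2 lower, 0 to 2 endoglin genes higher and 1 to 2 lower, and 1 to 10 interferon genes lower. With 1 surrogate variable 1462 genes were higher and 1007 lower, and list counts were 1 fibroblast, 3 GPI-anchored and 2 close relatives higher, and 3 committed, 4 stromal surface, 6 fibroblast, 2 close relatives and 11 interferon lower. Without vehicle replicate 4 and S1P replicate 5 together, 1178 genes were higher and 934 lower, with 2 fibroblast, 3 GPI-anchored, 2 close relatives and 2 endoglin higher, and 3 committed, 4 stromal surface, 6 GPI-anchored, 2 close relatives and 19 interferon lower. DESeq2 gave 804 genes lower over all genes, with 2 GPI-anchored higher, and 4 committed, 4 stromal surface, 6 fibroblast, 5 GPI-anchored, 2 close relatives and 15 interferon lower. GPI-anchored genes higher numbered 0 with RLE factors, and 2 with library totals, with no filter or with limma-voom. Stromal surface genes lower numbered 2 with RLE factors or limma-voom, and committed genes lower 0 with no filter. Without vehicle replicate 1 and S1P replicate 5 together, an alternative chosen after seeing the data, 0 GPI-anchored genes were higher, and 3 committed and 7 interferon genes lower. Of 765 values for 45 genes, 699 kept direction and call, 45 lost the call, 7 gained it and 14 changed sign. The 699 include genes called in neither the main fit nor the alternative, and only called genes could lose a call. The 14 that changed sign were log2 fold changes, given here with their range over the fits that left out 1 library. Cd34 ran from -0.13 (without S1P replicate 8; -0.12 without vehicle replicate 1) to 0.60, Ly6a from -0.73 to 0.27, Ly6c1 from -2.39 to 0.37 and Pcolce2 from -1.48 to 0.16, each of the last 3 highest without vehicle replicate 1. Thy1 ran from -0.46 to 0.017 (without S1P replicate 5), Eng from -0.48 to 0.015 (without vehicle replicate 4), Col4a1 from -0.42 to 0.039 (without vehicle replicate 4), Glipr2 from -0.17 to 0.020 (without vehicle replicate 2; 0.019 without S1P replicate 8) and Creb5 from -0.046 (without S1P replicate 5) to 0.72. Without vehicle replicate 4 and S1P replicate 5 together, Thy1 was at 0.088, Col4a1 at 0.043 and Creb5 at -0.19. The cause was not tested. Dpp4, with at most 1 count per library, and Pi16 after S1P, with 4 to 19, are limited by depth.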
